A study of Mus musculus with 12 samples.

Results

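Lysosomes are the acidic compartments in which cells take apart lipids, sugar chains and proteins, and macrophages use them to digest what they engulf. The 36 genes described here are a fixed list of lysosomal genes, chosen by name and found by matching the gene identifiers of the count tables to mouse symbols. All 36 were found among the 36439 genes counted. By role they comprise 7 proteins of the lysosomal membrane, 9 proteins of sphingolipid breakdown, 2 of sterol and neutral lipid handling, 7 enzymes of glycosaminoglycan breakdown, 5 of glycoprotein and glycogen breakdown, 4 proteins of lysosomal protein processing and 2 transcription factors.

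The list was followed by RNA sequencing of tumour-associated macrophages, or TAMs, which are macrophages that live within a solid tumour. All 12 libraries came from C57BL/6 mice carrying Lewis lung carcinoma, a transplantable mouse lung tumour, under the skin. There were 3 libraries of MRC1+ TAMs, F4/80+ cells that carry the mannose receptor MRC1, and 3 of CD11c+ TAMs, F4/80+ cells that carry the integrin CD11c. There were also 3 libraries of F4/80+ TAMs overexpressing the microRNA miR-511-3p and 3 of F4/80+ TAMs overexpressing a mutated form of it, called miR-511-3p-mut. The sample titles of both overexpression groups carry the prefix SFFV. The sources used here give neither the promoter, nor the age of the mice, nor the sequence of the mutated form. The labels number the libraries of each group but do not tie them to mice or tumours. P-values therefore weigh a difference between groups only against the spread among libraries of a group, which may be technical.

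Hydrolases reach the lysosome mostly through a mannose 6-phosphate tag, and several lipid hydrolases need a helper protein that lifts their substrate out of the membrane. The transcription factors TFEB and TFE3 bind a short palindromic DNA element, often called the CLEAR motif, near the start of many lysosomal genes, and are held in the cytoplasm when nutrient signalling through mTORC1 is active. Macrophages are rich in lysosomes, and how far they degrade engulfed protein bears on how much they keep for antigen presentation.

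The 3 MRC1+ libraries held 15664146 to 17689064 counted reads, the CD11c+ libraries 10824918 to 17318957, the miR-511-3p libraries 23326219 to 27186233 and the miR-511-3p-mut libraries 22906418 to 27890433. Each of the 36 genes had at least 76 reads in every sorted library and at least 395 in every overexpression library. The gate genes, which are no finding, followed the labels. Mrc1 stood at 4099, 3623 and 3609 in MRC1+ TAMs and at 1447, 1826 and 1574 in CD11c+ TAMs, in CPM. These values are read counts relative to the library total, scaled by TMM, which sets libraries level through the bulk of their genes. Itgax, which encodes CD11c, stood at 123, 104 and 78.6 CPM in MRC1+ TAMs and at 943, 1051 and 972 CPM in CD11c+ TAMs. The hairpin gene Mir511 had 66, 63 and 80 reads in miR-511-3p TAMs, against 3, 9 and 5 reads in miR-511-3p-mut TAMs. Those are reads over the hairpin gene, and the mature microRNA was not measured. Whether reads of the mutated form align to this gene was not tested. The 12 macrophage markers checked were above 0 in every library. The first CD11c+ library stood apart by its fibroblast markers, whose summed level was 1540 CPM there and 375 and 435 CPM in the other CD11c+ libraries, so results are also given without it.

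Between MRC1+ and CD11c+ TAMs, 13 of the 36 genes passed the test, 6 higher and 7 lower in MRC1+ TAMs. GM2 activator (Gm2a) had the largest difference of the 36 and was 2.99-fold lower in MRC1+ TAMs. The membrane protein Cd63, the peptidase Tpp1 and the galactosylceramidase Galc were higher, by 1.61-fold in Tpp1, 1.66-fold in Galc and 1.69-fold in Cd63. The test was the quasi-likelihood test of edgeR with Benjamini-Hochberg adjustment over all 15622 tested genes at 0.05, on 3 libraries against 3. It did not pair libraries of the same number. With the replicate number as a block, 11 of the 36 passed (30.6%), against 17.8% of all tested genes. The 13 are 36.1% of the list, against 16.6% of all tested genes. The 6 higher genes are 16.7% of the list, against 6.91% of all tested genes, and the 7 lower genes 19.4%, against 9.71%. Among the 10187 tested genes whose mean level reached that of the lowest of the 36, the shares called were 19.2% in all, 7.1% higher and 12.1% lower. Only Gm2a among the 36 passed with a difference of at least 2-fold, which is 2.78% of the list, against 6.27% of all tested genes.

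For 25 of the 36 genes, or 69.4%, the MRC1+ libraries lay all above or all below the CD11c+ libraries, against 38.3% of all tested genes. At an unadjusted p under 0.05 there were 21 genes of the list, or 58.3%, against 33.3% of all tested genes. The median log2 fold change of MRC1+ over CD11c+ TAMs was 0.05 for the list, with 19 genes above 0 and 17 below, and 0.01 for all tested genes. The median size of the difference, whatever its sign, was 0.30 for the list and 0.25 for all tested genes. It was 0.20 for the tested genes whose mean level reached that of the lowest of the 36. The list thus held many small differences in both directions. In the sum over the list the groups overlapped. The 36 genes took up 1.29%, 1.22% and 1.18% of the counted reads in MRC1+ TAMs and 1.19%, 1.34% and 1.23% in CD11c+ TAMs.

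How many of the 36 passed depended on single libraries and on the scaling, and the calls over all tested genes shifted as well. Without the second MRC1+ library 4 of the 36 passed (11.1%), 3 higher and 1 lower, against 8.02% of all tested genes. Without the third MRC1+ library 5 passed (13.9%), 3 higher and 2 lower, against 8.06% of all tested genes. Without the second CD11c+ library 6 passed (16.7%), 4 higher and 2 lower, against 9.35%, and without the third CD11c+ library 8 passed (22.2%), 5 higher and 3 lower, against 10.9%. Without the first CD11c+ library, the one that stood apart, 15 passed (41.7%), 7 higher and 8 lower, against 29.6% of all tested genes, and all 13 were among them. Scaling turned the balance of higher and lower calls in the list and over all genes alike. With upper-quartile factors 12 of the 36 passed, 8 higher and 4 lower, and over all genes 1348 were higher and 1325 lower. With library totals alone 15 passed, 11 higher and 4 lower, and over all genes 1636 were higher and 1110 lower. With TMM factors the counts over all genes were 1080 higher and 1517 lower. Library totals also moved the median of all tested genes to 0.14 on the log2 scale. None of the 13 changed sign under any alternative run, and 4 of them, Gm2a, Tpp1, Galc and Cd63, passed whichever library was left out.

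**Figure D1:**
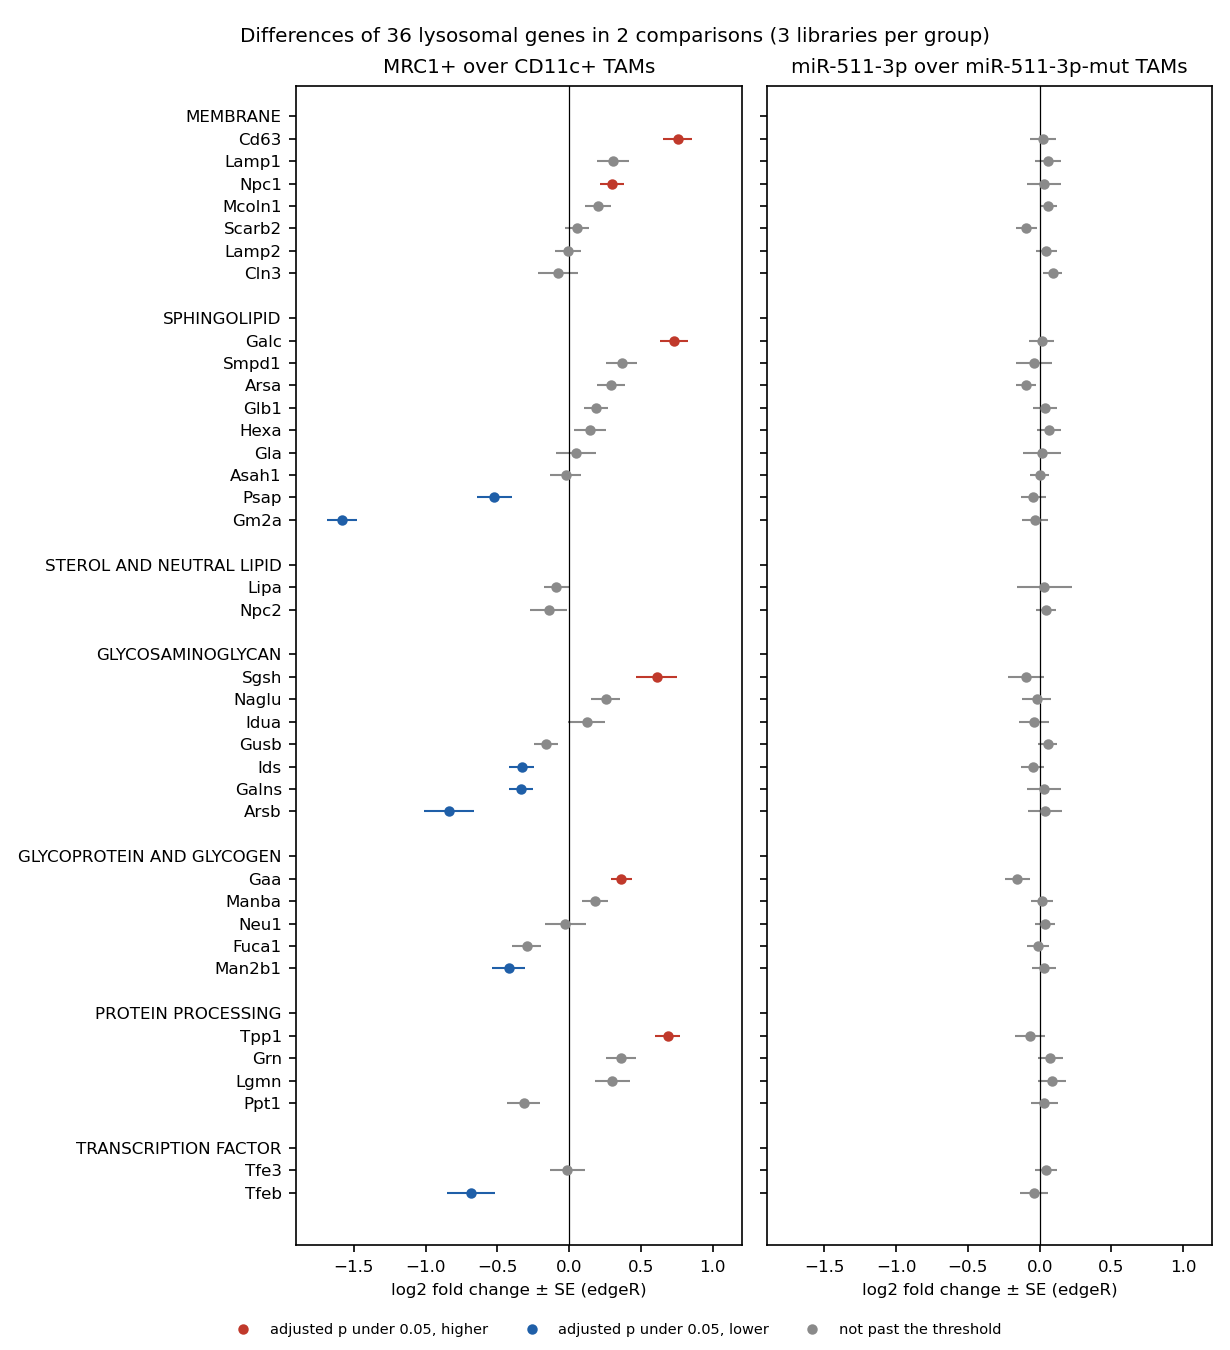
Log2 fold change with its standard error for the 36 lysosomal genes, grouped by role, for MRC1+ over CD11c+ TAMs (left) and miR-511-3p over miR-511-3p-mut TAMs (right), from 3 libraries per group. On the left the 6 genes in red and 7 in blue passed an adjusted p of 0.05 and Gm2a lies farthest from 0 at -1.58, while on the right no gene passed and all lie between -0.16 and 0.09.

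Of the 7 lysosomal membrane proteins, 2 rose in MRC1+ TAMs, none fell and 5 did not pass. Cd63, a tetraspanin of late endosomes and lysosomes, stood at 54.5, 50.7 and 46.6 CPM in MRC1+ TAMs and at 28.8, 32.9 and 28.1 CPM in CD11c+ TAMs. Its log2 fold change was 0.75 ± 0.10 (SE, edgeR, Benjamini-Hochberg adjusted p = 0.00219), and every MRC1+ library lay above every CD11c+ library. Npc1, the membrane transporter that exports cholesterol from the lysosome, stood at 179, 170 and 174 CPM in MRC1+ TAMs and at 133, 147 and 146 CPM in CD11c+ TAMs. The groups did not overlap, and the log2 fold change was 0.30 ± 0.08 (edgeR, adjusted p = 0.0419). This call was among the least stable: the adjusted p was 0.0798, 0.132 and 0.136 without the first, the second and the third MRC1+ library, and 0.0971 and 0.0568 without the second and the third CD11c+ library. It was 0.0545 with the replicate number as a block. Part of an Npc1 exon lies opposite an exon of Rmc1, a gene with 11368 reads over the 12 libraries against 58220 for Npc1, and the sources used here do not say how strand was used in counting.

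Lamp1 and Lamp2 encode the major glycoproteins of the lysosomal membrane, and neither passed. Lamp1 stood at 1051, 918 and 946 CPM in MRC1+ TAMs and at 696, 835 and 828 CPM in CD11c+ TAMs. The groups did not overlap, but the difference of 0.31 ± 0.11 on the log2 scale missed the threshold (edgeR, adjusted p = 0.0948) and passed it only with library totals alone (0.0202). Lamp2 stood at 844, 764 and 768 CPM in MRC1+ TAMs and at 781, 833 and 777 CPM in CD11c+ TAMs, with a log2 fold change of -0.01 ± 0.09. Its libraries were interleaved, and the approximate 95% interval of the difference ran from -0.22 to 0.20. The calcium channel Mcoln1 had a log2 fold change of 0.20. The glucocerebrosidase transporter Scarb2 stood at 0.05 and the membrane protein Cln3, whose human counterpart is mutated in a childhood storage disease, at -0.08. None of these 3 passed.

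Of the 9 proteins of sphingolipid breakdown, 1 rose, 2 fell and 6 did not pass. Gm2a, the activator that presents the ganglioside GM2 to hexosaminidase A, stood at 334, 341 and 294 CPM in MRC1+ TAMs and at 896, 1048 and 959 CPM in CD11c+ TAMs. The highest MRC1+ library held less than the lowest CD11c+ library by a wide margin. The log2 fold change was -1.58 ± 0.11 (edgeR, adjusted p = 8.48e-05), and the adjusted p reached at most 0.00117 over all alternatives run. Hexa, the alpha subunit of hexosaminidase A, had a log2 fold change of 0.15 (adjusted p = 0.389).

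Psap, the precursor of the saposins that activate several sphingolipid hydrolases, stood at 3110, 2718 and 2744 CPM in MRC1+ TAMs and at 3615, 4314 and 4386 CPM in CD11c+ TAMs. All MRC1+ libraries lay below all CD11c+ libraries, with a log2 fold change of -0.52 ± 0.12 (edgeR, adjusted p = 0.0234). The adjusted p was 0.0504 with the replicate block. It was 0.101 and 0.0945 without the second and the third MRC1+ library, and 0.0784 and 0.0563 without the second and the third CD11c+ library. Psap made up 24.8%, 23.9% and 24.0% of the reads of the 36 genes in MRC1+ TAMs and 30.4%, 31.2% and 32.0% in CD11c+ TAMs. It was thus the largest single contributor to the list in both groups. Both activator genes of this group, Gm2a and Psap, were the members that fell.

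Galc, the galactosylceramidase that breaks down myelin lipids, stood at 52.0, 54.9 and 52.2 CPM in MRC1+ TAMs and at 28.8, 35.1 and 31.9 CPM in CD11c+ TAMs. The groups lay far apart relative to their spread, with a log2 fold change of 0.73 ± 0.10 (edgeR, adjusted p = 0.00192). The acid sphingomyelinase Smpd1 had a log2 fold change of 0.37 and lay just outside the threshold (edgeR, adjusted p = 0.0530). It passed in 3 of 8 alternatives that kept all libraries. The sulfatidase Arsa had a log2 fold change of 0.29 (edgeR, adjusted p = 0.0796). It passed without the first CD11c+ library (0.00829) and with all 12 libraries in 1 fit (0.0329). The beta-galactosidase Glb1 stood at 0.19, the alpha-galactosidase Gla at 0.05 and the ceramidase Asah1 at -0.02, none past the threshold.

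The sterol and neutral lipid genes did not pass. Npc2, the soluble partner of Npc1 that hands it cholesterol, had 625 ± 49.9 CPM in MRC1+ TAMs and 690 ± 107 CPM in CD11c+ TAMs (SD, n = 3 each), with a log2 fold change of -0.14. Lipa, the acid lipase that frees cholesterol from its esters, had 216 ± 16.5 CPM in MRC1+ TAMs and 229 ± 5.86 CPM in CD11c+ TAMs, a log2 fold change of -0.09. In both genes the libraries of the groups overlapped.

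Of the 7 glycosaminoglycan enzymes, 1 rose, 3 fell and 3 did not pass. Arsb, which removes sulfate from dermatan sulfate and chondroitin sulfate, stood at 4.73, 6.17 and 6.83 CPM in MRC1+ TAMs and at 11.3, 9.47 and 10.9 CPM in CD11c+ TAMs. The groups did not overlap, with a log2 fold change of -0.84 ± 0.17 (edgeR, adjusted p = 0.0149), and the call was lost without the second MRC1+ library (0.0528). Ids, the iduronate sulfatase of dermatan and heparan sulfate, stood at 67.1, 72.6 and 66.7 CPM in MRC1+ TAMs and at 88.9, 91.1 and 79.8 CPM in CD11c+ TAMs. Every MRC1+ library was below every CD11c+ library (log2 fold change -0.33 ± 0.09, edgeR, adjusted p = 0.0359). Galns, the sulfatase of keratan sulfate and chondroitin sulfate, stood at 33.9, 33.5 and 32.4 CPM in MRC1+ TAMs and at 39.3, 42.8 and 43.7 CPM in CD11c+ TAMs. It too did not overlap between the groups, with a log2 fold change of -0.33 ± 0.08 (edgeR, adjusted p = 0.0319).

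The calls of Ids and Galns rested on the scaling and on single libraries. Ids had an adjusted p of 0.0709 with upper-quartile factors and 0.230 with library totals alone, and Galns 0.0533 and 0.143. Without the first, the second and the third MRC1+ library the adjusted p of Ids was 0.107, 0.0787 and 0.134, and without the second CD11c+ library 0.118. For Galns it was 0.0683, 0.105 and 0.118 without the first, the second and the third MRC1+ library, and 0.102 and 0.0884 without the second and the third CD11c+ library. Both kept a negative sign throughout.

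Sgsh, the sulfamidase of heparan sulfate, was the glycosaminoglycan enzyme that rose. It stood at 16.4, 18.3 and 17.8 CPM in MRC1+ TAMs and at 11.0, 13.5 and 9.78 CPM in CD11c+ TAMs, with no overlap and a log2 fold change of 0.61 ± 0.14 (edgeR, adjusted p = 0.0223). The call was lost without the second (0.0959) and the third (0.0861) MRC1+ library. Naglu, an exoglycosidase of heparan sulfate, had a log2 fold change of 0.26, the iduronidase Idua 0.12 and the glucuronidase Gusb -0.16, none past the threshold. Sgsh overlaps an exon of Card14 on the opposite strand, a gene with 71 reads in all 12 libraries. In all, 10 of the 36 genes share exon sequence with another gene. The neighbours with more reads than the member itself were Apobr, opposite Cln3, with 34771 reads against 16224, and Cap1, opposite Ppt1, with 192907 against 68766.

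Of the 5 glycoprotein and glycogen enzymes, 1 rose, 1 fell and 3 did not pass. Gaa, the acid glucosidase that degrades lysosomal glycogen, stood at 79.3, 80.0 and 75.9 CPM in MRC1+ TAMs and at 62.3, 59.9 and 60.8 CPM in CD11c+ TAMs. Both groups were tight and did not overlap, with a log2 fold change of 0.36 ± 0.07 (edgeR, adjusted p = 0.0145). The adjusted p was 0.0889 and 0.0599 without the second and the third MRC1+ library and 0.0624 without the second CD11c+ library. Man2b1, the acid alpha-mannosidase, stood at 516, 453 and 413 CPM in MRC1+ TAMs and at 576, 668 and 608 CPM in CD11c+ TAMs. It lay lower in every MRC1+ library, with a log2 fold change of -0.42 ± 0.11 (edgeR, adjusted p = 0.0382). Its adjusted p was 0.0572 with upper-quartile factors and 0.108 with library totals alone. It was 0.128 and 0.133 without the second and the third MRC1+ library, and 0.125 and 0.0716 without the second and the third CD11c+ library. The fucosidase Fuca1 had a log2 fold change of -0.30 (edgeR, adjusted p = 0.0746). It passed without the first CD11c+ library (0.0128) and with all 12 libraries in 1 fit (0.0325). The beta-mannosidase Manba stood at 0.18 and the sialidase Neu1 at -0.03.

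Of the 4 proteins of protein processing, 1 rose and 3 did not pass. Tpp1, which removes tripeptides from the ends of proteins, stood at 153, 163 and 159 CPM in MRC1+ TAMs and at 90.5, 106 and 99.3 CPM in CD11c+ TAMs. The lowest MRC1+ library lay well above the highest CD11c+ library, with a log2 fold change of 0.69 ± 0.09 (edgeR, adjusted p = 0.00164). Grn, the precursor of progranulin and the granulins, stood at 782, 748 and 780 CPM in MRC1+ TAMs and at 526, 659 and 614 CPM in CD11c+ TAMs, and its groups did not overlap. Its log2 fold change of 0.36 lay just outside the threshold (edgeR, adjusted p = 0.0533), and it passed in 6 of 8 alternatives that kept all libraries and in no fit that left one out. Lgmn, the asparaginyl endopeptidase that matures other lysosomal proteases, had 1718 ± 69.4 CPM in MRC1+ TAMs and 1394 ± 183 CPM in CD11c+ TAMs (SD, n = 3 each), a log2 fold change of 0.30 (adjusted p = 0.122). The depalmitoylating enzyme Ppt1 stood at -0.32 (adjusted p = 0.0978).

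Of the 2 transcription factors, 1 fell and 1 did not pass. Tfeb stood at 17.3, 14.0 and 15.4 CPM in MRC1+ TAMs and at 20.2, 24.5 and 30.8 CPM in CD11c+ TAMs. The groups did not overlap, with the third CD11c+ library the highest, and the log2 fold change was -0.68 ± 0.17 (edgeR, adjusted p = 0.0268). The adjusted p was 0.0987 and 0.0866 without the second and the third MRC1+ library, and 0.0714 and 0.0613 without the second and the third CD11c+ library. Tfe3 stood at 45.2, 53.7 and 50.1 CPM in MRC1+ TAMs and at 43.1, 57.4 and 49.9 CPM in CD11c+ TAMs. Its libraries were fully interleaved, with a log2 fold change of -0.01 ± 0.12 and an approximate 95% interval from -0.29 to 0.27. These are levels of RNA. TFEB and TFE3 activity, which is set largely by where the protein sits in the cell, was not measured.

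**Figure D2:**
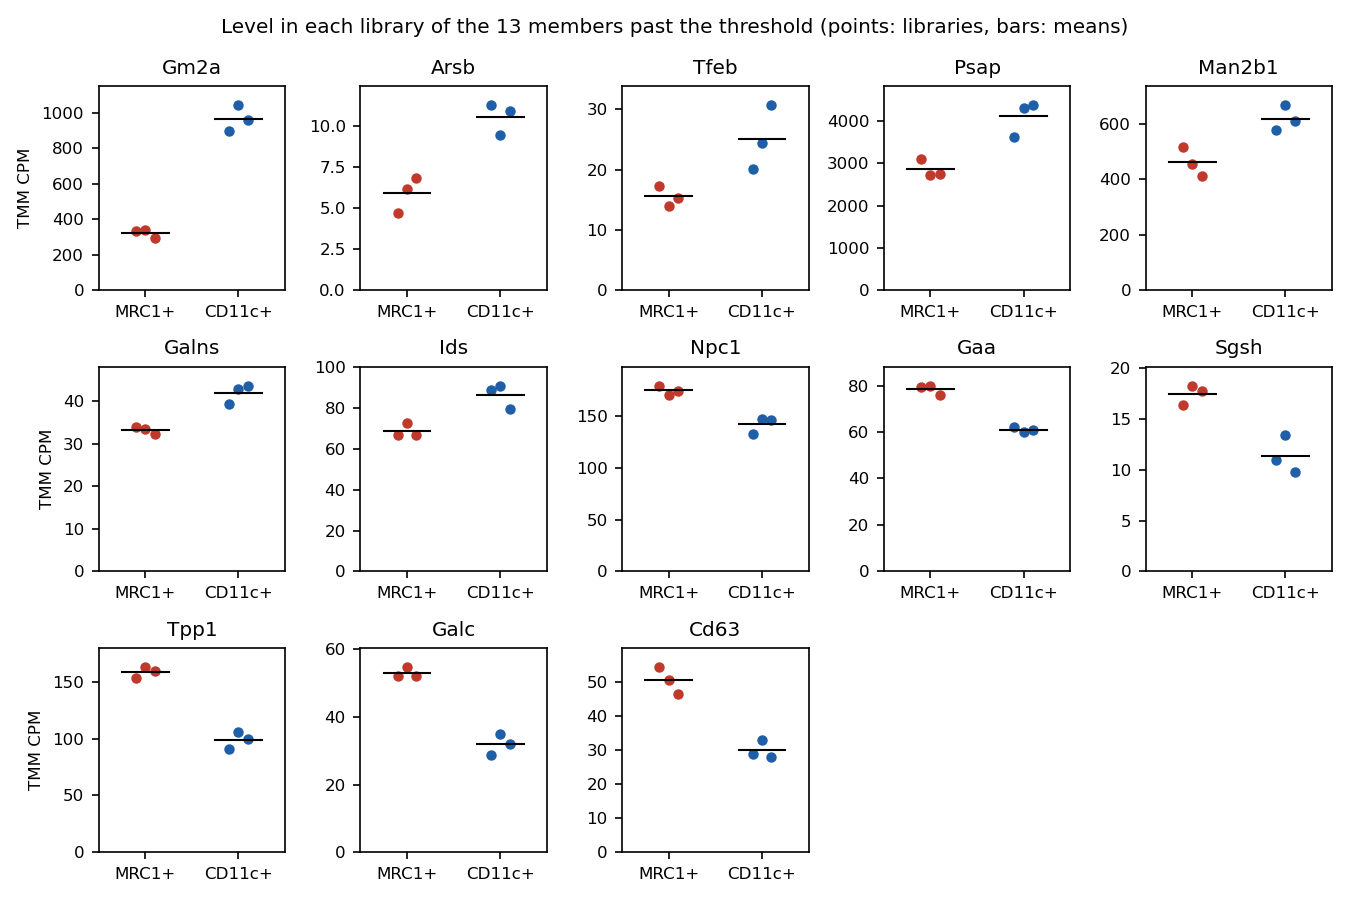
TMM-scaled CPM in each library of the 13 lysosomal genes that passed an adjusted p of 0.05 between MRC1+ and CD11c+ TAMs, on linear axes from 0. Points are libraries and bars are group means of 3; in each panel the groups do not overlap, and the separation is widest in Gm2a, where MRC1+ libraries lie between 294 and 341 and CD11c+ libraries between 896 and 1048.

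Because the element bound by TFEB and TFE3 has the core CACGTG, the promoters of the list were searched for these letters and for the longer TCACGTGA. RefSeq promoter windows from 250 bases before to 50 bases after the start of transcription (GRCm38.p6) were available for 33 of the 36 genes. The core CACGTG was present in 10 of 33 (30.3%), against 8.09% of all 27025 genes with a window, whether or not tested here. TCACGTGA, which contains the core, was in 3 of 33 (9.09%), against 1.12%. Both are palindromes, so a search of either strand finds the same matches. The element is described near many lysosomal genes, so a higher share in a lysosomal list is no separate finding. The longer matches are shown because they are the closest to that element, with the matched palindrome in capitals and the sequence 5′ to 3′ on the strand of the gene. They lie at chr7:126583340-126583369 (minus strand) for Cln3, chr8:3500462-3500491 (plus strand) for Mcoln1, and chrX:134601215-134601244 and chrX:134601182-134601211 (minus strand) for Gla.
Cln3: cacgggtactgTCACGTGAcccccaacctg
Mcoln1: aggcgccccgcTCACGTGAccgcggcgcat
Gla, first match: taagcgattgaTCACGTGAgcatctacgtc
Gla, second match: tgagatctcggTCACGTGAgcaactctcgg
The other genes with the core were Arsa, Gaa, Glb1, Lamp1, Lgmn, Naglu and Sgsh. Of these 10 genes, Gaa and Sgsh rose in MRC1+ TAMs, none fell and 8 did not pass, a share near the 16.6% called among all tested genes. Of the other 26 genes, 3 of which have no window, 4 rose, 7 fell and 15 did not pass, and the difference between the 10 and the 26 was not tested. Cln3, Mcoln1 and Gla were among those that did not pass. A match describes the letters and does not show binding in these cells.

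The other genes of the lysosome were followed in lists drawn up by role. Their counts stand beside 16.6% of all tested genes called, 6.91% higher and 9.71% lower. Among 26 other hydrolases 3 rose and 6 fell in MRC1+ TAMs, with a median log2 fold change of 0.02. Those of lowest p were Plbd1, a phospholipase B-like protein, at 239 ± 57.9 CPM in MRC1+ TAMs and 724 ± 64.9 CPM in CD11c+ TAMs (SD, n = 3 each), Naaa and Arsg. Naaa, which hydrolyses lipid amides, fell by 1.18 on the log2 scale, and Arsg, a sulfatase of heparan sulfate, rose by 1.50. Among 22 other membrane proteins 3 rose and 3 fell, with a median of 0.05. Hgsnat, which acetylates heparan sulfate inside the lysosome, had 328 ± 48.1 CPM in MRC1+ TAMs and 163 ± 10.5 CPM in CD11c+ TAMs, a log2 fold change of 1.01 ± 0.12. The nucleoside transporter Slc29a3 fell by 0.91 and the cation channel Tpcn1 rose by 0.73. These 6 passed in every fit that left out a library. Of the heparan sulfate enzymes, Sgsh, Hgsnat and Arsg were therefore higher and Ids lower in MRC1+ TAMs, while Naglu and Idua did not pass. That grouping was made after the values were seen.

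Of 17 subunits of the V-ATPase, the proton pump that acidifies the lysosome, none rose and 1 fell, with a median of -0.11. It was Atp6v0a2, a membrane-sector subunit, at 48.5 ± 2.47 CPM in MRC1+ TAMs and 81.8 ± 2.93 CPM in CD11c+ TAMs (log2 fold change -0.75 ± 0.08, edgeR, adjusted p = 0.000724). Of 16 genes that tag and sort hydrolases by mannose 6-phosphate, 2 rose and 2 fell, with a median of -0.02. Ap1b1, a subunit of the AP-1 adaptor, rose by 0.82 and the sorting receptor Sort1 fell by 1.34. The mannose 6-phosphate receptor Igf2r rose by 0.69, a call lost without the second (0.0571) or the third (0.0700) MRC1+ library. Of 21 genes that regulate TFEB and its relatives, none rose and 2 fell, with a median of 0.12. They were Rragb, a Rag GTPase at only 0.173 ± 0.0442 CPM in MRC1+ TAMs and 0.920 ± 0.155 CPM in CD11c+ TAMs, and the Ragulator subunit Lamtor4, which fell by 0.61. Lamtor4 lost its call without the second (0.0897) and the third (0.0861) MRC1+ library and without the second (0.0669) and the third (0.0532) CD11c+ library. Of 14 cathepsins and cystatin C, 4 rose and 4 fell, with a median of -0.18. Ctsf rose by 1.63, Ctsh fell by 0.76 and Ctsl rose by 0.62, all cysteine proteases. The median of all tested genes was 0.01, and 16.6% of them passed, 6.91% higher and 9.71% lower. Over the 6 lists, with each gene counted once, 30 of 115 tested genes passed.

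**Figure D3:**
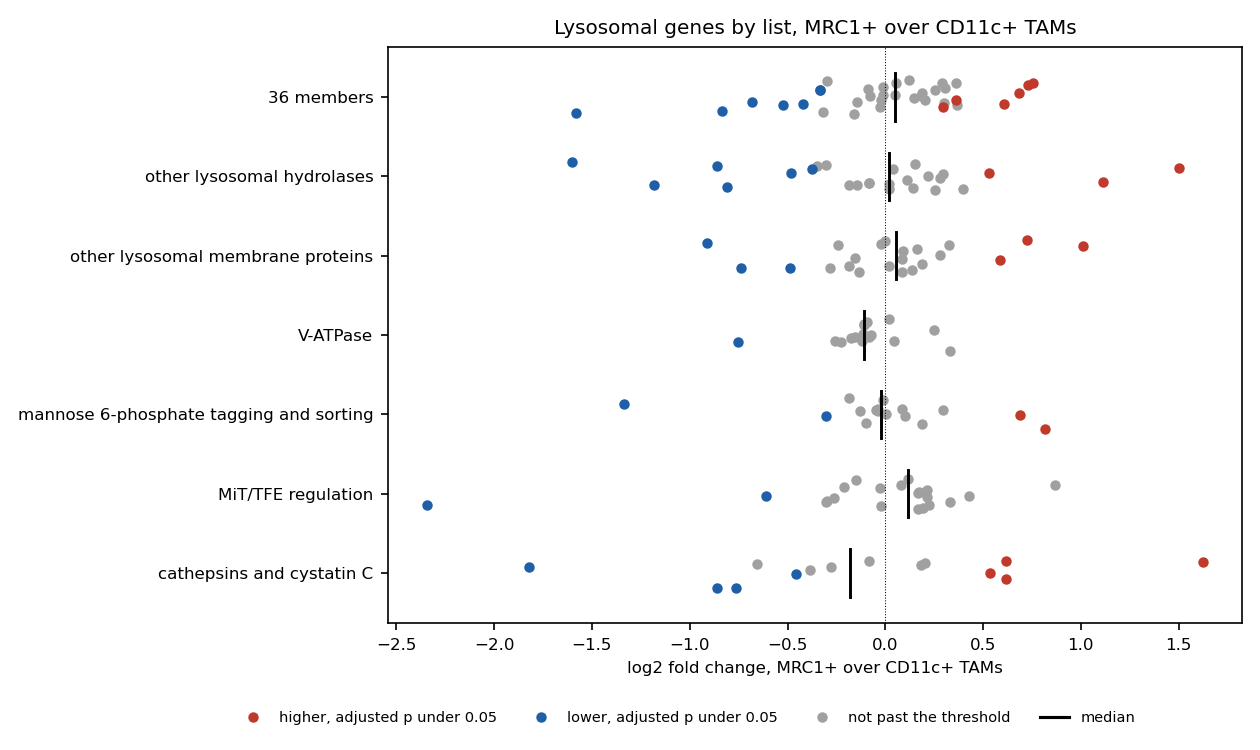
Log2 fold change of MRC1+ over CD11c+ TAMs for each gene of the 36-gene list and of 6 other lysosomal lists, with the median of each list as a vertical bar; vertical scatter within a list only separates the points. Red and blue points passed an adjusted p of 0.05; list medians lie between -0.18 for cathepsins and cystatin C and 0.12 for MiT/TFE regulation, while single genes reach from -2.34 to 1.63.

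Markers of other cells also differed between the sorted groups. Of 13 dendritic cell markers 11 were lower in MRC1+ TAMs, with sums of 60.5 to 64.7 CPM in MRC1+ and 402 to 683 CPM in CD11c+ libraries. Of 10 monocyte markers 9 were lower, with sums of 800 to 1125 CPM in MRC1+ and 2464 to 3637 CPM in CD11c+ libraries. No marker of these 2 lists was at 0 in any sorted library. Of 12 macrophage markers, Adgre1 and Mertk rose and none fell, with sums of 12025 to 15076 CPM in MRC1+ and 11246 to 15360 CPM in CD11c+ libraries. Mertk lost its call in 4 of 6 fits that left out a library, with adjusted p of 0.0763, 0.0793 and 0.0571 without the first, the second and the third MRC1+ library and 0.0576 without the third CD11c+ library. None of 12 fibroblast markers passed, although all 12 had a log2 fold change above 0, with a median of 0.52. They summed to 886 to 1159 CPM in MRC1+ libraries and to 1540, 375 and 435 CPM in the CD11c+ libraries, in order of their numbers.

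The remaining marker lists were at lower levels. Endothelial markers summed to 32.4 to 42.2 CPM in MRC1+ and 82.5 to 125 CPM in CD11c+ libraries, with 1 higher and 2 lower of 4 tested. Epithelial and carcinoma markers summed to 150 to 219 CPM in MRC1+ and 124 to 178 CPM in CD11c+ libraries, with 4 higher and 2 lower of 6 tested, and Cldn4 was at 0 in all CD11c+ libraries. T and NK cell markers summed to 71.7 to 143 CPM in MRC1+ and 35.2 to 124 CPM in CD11c+ libraries, with 2 lower of 10 tested. Neutrophil markers summed to 57.2 to 77.6 CPM in MRC1+ and 52.7 to 119 CPM in CD11c+ libraries, with 1 lower of 5 tested. The part of these differences in the values of the lysosomal genes was not tested. In bulk samples, fewer cells of a type and less RNA per cell cannot be told apart.

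Levels between genes were compared per length, as CPM over all counted reads, without TMM scaling, per kilobase of the principal transcript. Psap ranked first of the 36 in all 4 groups, at 1122 ± 70.8 in MRC1+, 1473 ± 106 in CD11c+, 1824 ± 59.6 in miR-511-3p and 1901 ± 104 in miR-511-3p-mut TAMs (SD, n = 3 each). Lgmn ranked second in all 4 groups, and Sgsh and Arsb took the last places, 35 and 36, in all 4. The list spanned a wide range, with Arsb at 1.53 in MRC1+, 2.50 in CD11c+, 4.46 in miR-511-3p and 4.38 in miR-511-3p-mut TAMs. The order of the genes was mostly kept between groups, with Gm2a among the exceptions at rank 12 in MRC1+ TAMs and rank 5 in CD11c+ TAMs. The sorted and the overexpression libraries are separate experiments, so their levels were set side by side without a test.

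On that scale Grn stood at 343 in MRC1+, 245 in CD11c+, 829 in miR-511-3p and 796 in miR-511-3p-mut TAMs. Tpp1 stood at 46.5 in MRC1+, 26.4 in CD11c+, 96.7 in miR-511-3p and 102 in miR-511-3p-mut TAMs. Tfe3 stood at 15.8 in MRC1+, 14.6 in CD11c+, 44.7 in miR-511-3p and 43.8 in miR-511-3p-mut TAMs. Like these 3, 30 of the 36 genes had higher means in both overexpression groups than in both sorted groups. In 2 genes, Scarb2 and the ceramidase gene Asah1, both were lower, and 4 genes did neither. How many of all genes showed the same pattern was not counted, so these counts have no background beside them. A rise particular to the lysosomal genes was not tested. Lamp2 was nearly level, at 229, 212, 234 and 230 in the same order of groups, and Scarb2 stood at 40.7 in MRC1+, 36.0 in CD11c+, 28.0 in miR-511-3p and 30.2 in miR-511-3p-mut TAMs. Within groups the 36 genes were measured closely. The median coefficient of variation over the list was 5.71% in MRC1+, 9.47% in CD11c+, 5.68% in miR-511-3p and 8.63% in miR-511-3p-mut TAMs, on TMM-scaled CPM. The widest spreads were 21.2% for Tfeb in CD11c+ and 26.3% for Lipa in miR-511-3p-mut TAMs.

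**Figure D4:**
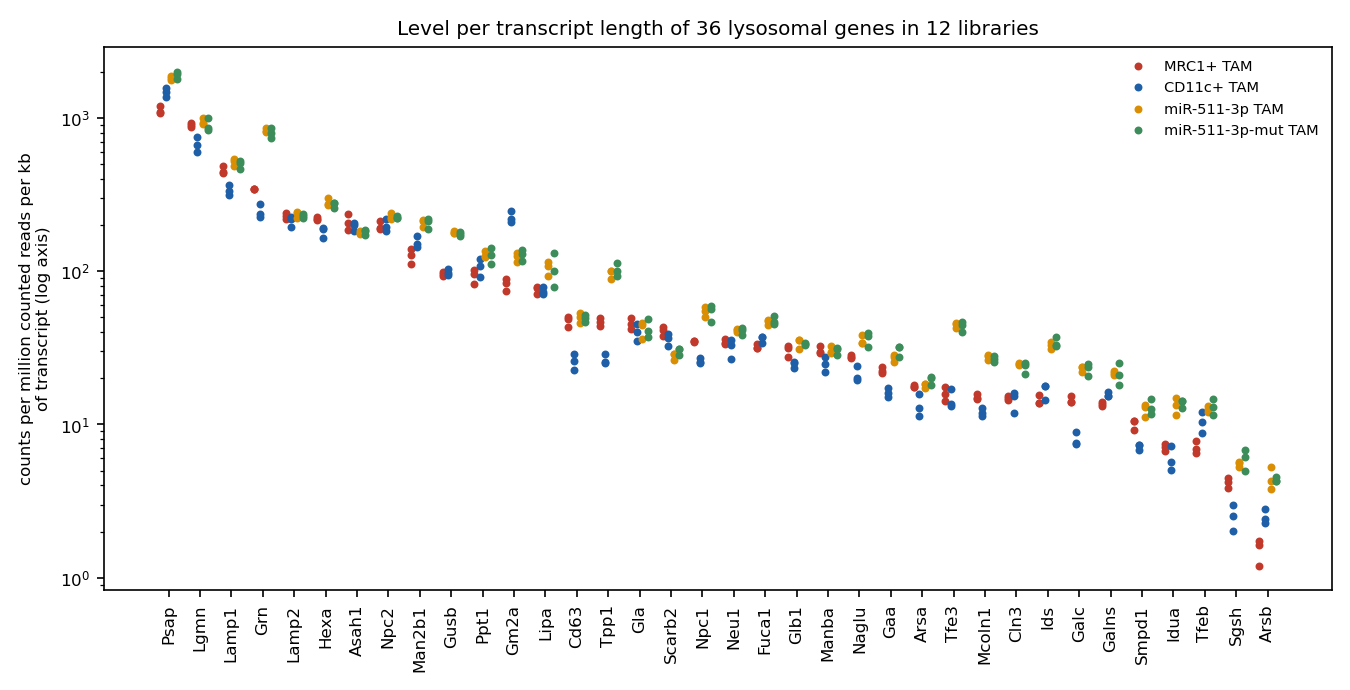
Level of the 36 lysosomal genes in each of 12 libraries, as CPM per kilobase of transcript on a log axis, with genes ordered by their mean in MRC1+ TAMs. Points are libraries, coloured by group; Psap and Lgmn lead and Sgsh and Arsb close the order in all 4 groups, and Gm2a stands higher in CD11c+ TAMs (224) than in MRC1+ TAMs (81.8).

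The second comparison asked whether overexpression of miR-511-3p, against its mutated form, was accompanied by changes in the same genes. MicroRNAs pair through bases 2 to 8 of their strand, the seed, with sites in the 3′ untranslated region (UTR) of messenger RNAs and lower their level or translation. The mature sequence of mmu-miR-511-3p (RefSeq, GRCm38.p6, chr2:14261051-14261072, plus strand) is shown with the seed in capitals, because the site search rests on it.
mmu-miR-511-3p: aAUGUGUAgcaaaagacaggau
In the longest 3′ UTR of each gene (GENCODE M21, GRCm38), 6 of the 36 genes held a match of the 8mer, 7mer-m8 or 7mer-A1 type, or 16.7%, against 20.7% of 11918 tested genes with a 3′ UTR. Ids and Tpp1 held an 8mer, the longest type of match, Idua a 7mer-m8, and Lamp2, Man2b1 and Psap a 7mer-A1. The strongest types are shown with the letters of the match in capitals, on the strand of the gene, at chr7:105745246-105745273 (minus strand) for Tpp1, chrX:70344634-70344661 (minus strand) for Ids and chr5:108684340-108684367 (plus strand) for Idua. The final A of an 8mer belongs to the match type but lies outside the stretch that pairs with the seed.
Tpp1, 8mer: ccatgtctcaaaaaTACACATAtgtgca
Ids, 8mer: tatatacatatacaTACACATAcataca
Idua, 7mer-m8: tcagactatgatctTACACATcccggga
Ids held a second 8mer close by, whose surroundings overlap the stretch shown.

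None of the 36 genes passed between miR-511-3p and miR-511-3p-mut TAMs. The same edgeR test called 0 of 14054 tested genes (0.0%) after Benjamini-Hochberg adjustment. At an unadjusted p under 0.05 it gave 343 genes, or 2.44%, and none of the 36. Mir511 itself had a log2 fold change of 3.56 ± 0.39 and an adjusted p of 0.482 in the edgeR test. DESeq2 called 1 gene in all, Mir511, as did edgeR on all 12 libraries, and edgeR with the replicate block called 1, Hspg2. No alternative called any of the 36. The log2 fold changes of the 36 ran from -0.16 to 0.09, with standard errors of 0.06 to 0.19 and a median of 0.03, against 0.00 for all tested genes. The approximate 95% intervals of the 36 lay within -0.42 and 0.48, so a difference beyond these bounds lies outside the interval of every gene of the list. The groups were free of overlap in 1 of the 36, Cln3, or 2.78%, against 6.38% of all tested genes.

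The lowest unadjusted p among the 36 belonged to Gaa, Arsa, Cln3 and Scarb2. Gaa stood at 93.8, 106 and 98.3 CPM in miR-511-3p TAMs and at 115, 119 and 97.6 CPM in miR-511-3p-mut TAMs, a log2 fold change of -0.16 ± 0.09. The third miR-511-3p-mut library lay among the miR-511-3p libraries. Arsa stood at 64.6, 61.9 and 63.2 CPM in miR-511-3p TAMs and at 62.4, 72.3 and 68.1 CPM in miR-511-3p-mut TAMs, with overlap and a log2 fold change of -0.10 ± 0.07. Cln3 stood at 80.8, 80.4 and 79.6 CPM in miR-511-3p TAMs and at 77.7, 69.3 and 79.2 CPM in miR-511-3p-mut TAMs, a log2 fold change of 0.09 ± 0.07. Its groups were separated by a narrow margin. Part of a Cln3 exon lies opposite an exon of Apobr, and the sources used here do not say how reads there were counted. Scarb2 stood at 126, 139 and 132 CPM in miR-511-3p TAMs and at 145, 148 and 131 CPM in miR-511-3p-mut TAMs, with overlap and a log2 fold change of -0.09 ± 0.07. The edgeR adjusted p was 0.9999 for all 36.

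The 6 genes with a seed match had log2 fold changes between -0.07 and 0.05. Tpp1 had 346 ± 29.5 CPM in miR-511-3p TAMs and 363 ± 44.0 CPM in miR-511-3p-mut TAMs (SD, n = 3 each), a log2 fold change of -0.07 ± 0.11. Ids stood at 166, 158 and 169 CPM in miR-511-3p TAMs and at 160, 190 and 161 CPM in miR-511-3p-mut TAMs, a log2 fold change of -0.05 ± 0.08. In both genes the libraries overlapped. Idua had a log2 fold change of -0.04 ± 0.11, Lamp2 of 0.05 ± 0.07, Man2b1 of 0.03 ± 0.09 and Psap of -0.04 ± 0.09. The median of these 6 genes was -0.04, beside 0.03 for the 30 without a match, and over all tested genes with a 3′ UTR the medians were -0.01 with and 0.01 without one.

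Genes that differed between the sorted subsets overlapped between these groups. Gm2a stood at 551, 481 and 508 CPM in miR-511-3p TAMs and at 558, 545 and 472 CPM in miR-511-3p-mut TAMs. Tfeb stood at 29.3, 28.2 and 29.9 CPM in miR-511-3p TAMs and at 33.3, 30.3 and 26.0 CPM in miR-511-3p-mut TAMs. In both the groups overlapped, as they did in Tfe3, with 142, 152 and 148 CPM in miR-511-3p TAMs and 144, 155 and 129 CPM in miR-511-3p-mut TAMs. Lamp1 stood at 1209, 1199 and 1055 CPM in miR-511-3p TAMs and at 1121, 1192 and 1014 CPM in miR-511-3p-mut TAMs, and Lamp2 at 885, 882 and 784 CPM in miR-511-3p TAMs and 796, 844 and 830 CPM in miR-511-3p-mut TAMs. None of 114 tested genes of the other lysosomal lists passed. In all, the 36 genes took up 1.74%, 1.75% and 1.68% of the counted reads in miR-511-3p TAMs and 1.81%, 1.74% and 1.62% in miR-511-3p-mut TAMs. The fibroblast markers summed to 103 to 310 CPM in miR-511-3p and 201 to 787 CPM in miR-511-3p-mut libraries, and no marker list had a gene that passed. Whether the effect of MRC1+ sorting on a gene differs from that of miR-511-3p was not tested.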

How the data were processed

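RNA was made into libraries by an Illumina TruSeq protocol, per the labels' protocols. The authors deposited raw read counts for each Ensembl gene. Build mm9 (NCBIM37) and the tools HTSeq, SAMtools 0.1.12a, TopHat 1.2.0 and Bowtie are those that the submitters' processing notes list. The sources used here do not give the counting mode or strand setting, so counts of overlapping genes are uncertain. The deposited tables hold 36439 genes and 5 summary entries, which entered neither library sizes nor tests. Between 19.7% and 26.6% of reads in sorted libraries, and 7.64% and 10.4% in overexpression libraries, were assigned to no annotated feature.

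Symbols, transcript lengths and 3′ UTRs came from GENCODE M21 and promoters and the microRNA from RefSeq, both on GRCm38, which is newer than the build of the counts. Sequences were joined to counts by gene only. Lengths are those of the principal transcript.

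Groups were taken from the labels. Each comparison used the 6 libraries concerned in edgeR 4.0.16 (R 4.3.3), with TMM scaling, filterByExpr, the quasi-likelihood test and Benjamini-Hochberg adjustment over all tested genes at 0.05; CPM carry the same factors, and approximate 95% intervals come from the standard errors. The filter kept all 36 genes in both comparisons. The steps were tested on simulated counts. Alternatives were RLE, upper-quartile and no scaling factors, DESeq2 1.42.0, no filter, a filter of 5 CPM in 3 libraries, all 12 libraries in 1 fit, the replicate number as a block, and leaving out each library.

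Same-numbered libraries deviated together from their group means, with correlations across genes of 0.104, 0.337 and 0.250 in the sorted and 0.147, 0.258 and 0.462 in the overexpression groups. As each exceeds 0.1, same numbers were read as possible pairs. This reading comes from the data, because the labels leave the meaning of the numbers unsaid. The main tests therefore left the numbers out, so their calls take no account of such pairing. With the number as a block, 11 of the 36 passed between MRC1+ and CD11c+ TAMs, against 13 without it. One exception to the best match by number was the first miR-511-3p library, whose correlation with the second miR-511-3p-mut library was 0.166.

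The 36 genes, the other lists and the tests were chosen with earlier results of these data known. Values per library are given by rule for each of the 36 past the threshold, for the 4 of lowest p where fewer than 4 passed, and for Tfeb, Tfe3, Lamp1 and Lamp2; the rest appear by role. Grn in the sorted comparison, and Gm2a and Ids in the overexpression comparison, are given per library beyond that rule. Of other lists up to 3 genes of lowest p are named. Of 27 other hydrolases listed, 26 matched a symbol.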

Additional observations from a re-analysis of the deposited data

How the results depend on the processing

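Between MRC1+ and CD11c+ TAMs, leaving out 1 library at a time gave 4 to 15 of the 36 genes past the threshold and 1270 to 4707 of all genes, against 13 and 2597 with all libraries. Of the 13 genes, 8 passed in all 8 alternatives that kept every library, and no fit reversed the sign of any of the 13. DESeq2 called all 13 and 1 more gene of the list. With the replicate number as a block 11 of the 36 passed (30.6%), 5 higher and 6 lower, and Psap (0.0504) and Npc1 (0.0545) were the calls lost. In that fit 2788 genes passed in all, or 17.8% of those tested. No filter gave 11 (6 higher, 5 lower), or 30.6%, against 11.9% of all tested genes. A filter of 5 CPM in 3 libraries gave 15 (8 higher, 7 lower), or 41.7%, against 20.1%. All 12 libraries in 1 fit also gave 15 (7 higher, 8 lower), or 41.7%, against 20.4% of all tested genes. Without a filter Npc1 (0.0649), Galns (0.0657) and Ids (0.0591) were lost, and with all 12 libraries Npc1 (0.0650) was lost. Of the 23 genes that did not pass, 7 had another sign in some alternative. Between miR-511-3p and miR-511-3p-mut TAMs no alternative called any of the 36, and of all genes 1 was called by DESeq2, 1 with all 12 libraries and 1 with the replicate block, against 0 otherwise; 26 of the 36 had another sign in some alternative. The causes of these shifts were not tested. Arsb and Sgsh had few reads, at least 76 and 95 in the sorted libraries, and the lowest levels per length of the 36 in all 4 groups.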
